A study of Mus musculus with 24 samples.

Results

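The end of the light phase was set against its start in the mouse heart. Hearts taken at zeitgeber time (ZT, hours after lights-on) 11, an hour before lights-off, were compared with hearts taken at ZT03. All arrays whose titles give those times were used, 4 for ZT11 and 4 for ZT03, which makes 8 of the 24 arrays in the series. Both groups held male wild-type C57Bl/6 mice aged 8 weeks, kept in 12 h of light and 12 h of dark with no treatment. The labels give no difference between the groups other than the time of collection. The other 16 arrays came from ZT07, ZT15, ZT19 and ZT23, with 4 arrays each. Myocardium was snap frozen, total RNA was extracted with TRIzol, and biotinylated cRNA from 500 ng was hybridised to an Affymetrix mouse gene array, 1 array per sample. The labels call the 4 samples of a time biological replicates and name no pooling, cage or hybridisation batch, so a batch shared by the arrays of 1 time cannot be told apart from time. Mice are active in the dark, so these 2 times lie early and late in the rest phase.

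The circadian clock is a feedback loop of transcription present in nearly every cell, heart muscle cells included. CLOCK or its relative NPAS2 pairs with BMAL1, the product of Arntl, and switches on the genes of their own repressors, the PER, CRY, CHRONO, DEC and REV-ERB proteins, and of the output factor DBP. The REV-ERB proteins in turn shut down Arntl, so activator and repressor genes are expressed at opposite times of the day. In the heart the clock is known to work beside feeding, the nervous system and adrenal glucocorticoids in timing metabolism, growth and contraction genes.

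Each value below is a log2 difference from the gene's own median over the 24 arrays, so no expression level is known and levels of different genes cannot be compared. Base 2, and a higher value for more RNA, were assumed. For the same reason the tissue label could not be checked by the presence of heart muscle markers. The time labels were checked with the clock genes, whose values separated the 2 times without overlap in 14 of 19 measured genes, against 6.99% of all genes. The same values are reported as results below, so this check is not separate from them. Within ZT03 the arrays correlated at 0.117 to 0.255 over all genes and within ZT11 at 0.088 to 0.337, while pairs of arrays from different times lay between -0.257 and 0.015. Centring each gene on its own median lowers such correlations. Values near or below 0 therefore do not by themselves show that the times differ. The number of arrays limits the precision.

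Of 22180 genes, 413 (1.86%) differed between ZT11 and ZT03 at an adjusted p below 0.05 in limma's moderated test, against 2347 at an unadjusted p below 0.05. At ZT11 188 genes (0.848% of all genes) were higher and 225 (1.01%) were lower. The median called change was 1.31-fold, 79 genes changed at least 1.5-fold and 22 at least 2-fold. In 393 of the 413 genes the 4 values of one time lay wholly outside those of the other, as they did in 6.99% of all genes. The genes were called on these same values, which favours such a gap, so the 2 shares are not on an equal footing. The median difference over all genes was -0.00073. Leaving out ZT03 replicate 2 reduced the lower genes to 145 and the higher ones to 132. These are bulk samples, so fewer cells of a type and less RNA per cell cannot be told apart in any of these changes.

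The largest fall and the largest rise were both in clock genes. Arntl, which encodes the activator BMAL1, had values of 1.55, 1.35, 1.49 and 1.30 in the 4 hearts at ZT03 and of -1.24, -1.01, -1.30 and -0.98 at ZT11. Every heart at ZT03 was thus far above every heart at ZT11. The mean was 5.87-fold lower at ZT11 (log2 -2.55 ± 0.12, SE, means of 4 against 4 arrays, adjusted p = 2.08e-11). Here and below, each SE is limma's moderated value with the spread pooled over all times, not that of the compared hearts alone. Clock, the partner of Arntl, ran from 0.44 to 0.57 at ZT03 and from -0.54 to -0.39 at ZT11, a 1.93-fold fall (adjusted p = 3.57e-08). Npas2, which can stand in for Clock, ran from 0.52 to 0.73 and from -0.47 to -0.18, a 1.96-fold fall (adjusted p = 3.98e-05). The other measured activators did not pass the test. These were Rora (log2 0.14, adjusted p = 0.483), Rorb (-0.01, adjusted p = 0.984) and Arntl2 (0.01, adjusted p = 0.996), so 3 of 6 fell and 0 rose. Rora and Rorb encode receptors that activate Arntl at the sites the REV-ERB proteins occupy.

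Among 9 measured repressors 7 rose and 0 fell. Per1 and Per3 encode period proteins, Ciart the repressor CHRONO, Nr1d2 the receptor REV-ERB beta, Bhlhe40 and Bhlhe41 the DEC proteins, and Cry2 a cryptochrome. Per1 had -1.48, -1.16, -0.60 and -0.02 at ZT03 against 0.90, 1.09, 1.22 and 1.33 at ZT11. The ZT03 hearts spread over more than a log2 unit, yet all lay below the lowest heart at ZT11, and the mean rose 3.85-fold (log2 1.95 ± 0.26, SE, adjusted p = 6.69e-05). Per3 was tighter, with -1.07, -0.85, -0.77 and -0.63 against 0.80, 1.03, 0.85 and 0.79, and rose 3.25-fold (adjusted p = 7.00e-11). Ciart had -0.42, -0.34, -0.75 and -0.54 against 0.98, 1.10, 1.24 and 1.19, with a wide gap between the times and a 3.11-fold rise (adjusted p = 4.22e-09). Smaller rises were seen in Nr1d2 (2.00-fold, adjusted p = 3.77e-06), Bhlhe41 (1.76-fold, adjusted p = 7.31e-05) and Cry2 (1.57-fold, adjusted p = 0.000171). Bhlhe40 rose 1.40-fold (adjusted p = 0.0166), a call lost without ZT03 replicate 1, without ZT11 replicate 3 and in the fit of the 8 arrays alone (adjusted p up to 0.134). Per2 shares its probe set with other genes and was not analysed here.

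Nr1d1 and Cry1 were the repressors that did not pass. Nr1d1, which encodes REV-ERB alpha, had 0.17, 0.57, 0.32 and 0.79 at ZT03 and 0.13, 0.32, 0.38 and 0.21 at ZT11, and the groups overlapped (log2 -0.20 ± 0.14, SE, adjusted p = 0.729). Its values at ZT07 were 1.31, 1.26, 1.12 and 0.89, above all 8 values of the other times. The ZT07 mean stood 0.78 ± 0.12 (SE) above the midpoint of ZT03 and ZT11 (adjusted p = 0.0213), and the ends of the light phase lay on either side of that high point. Cry1, a cryptochrome, ran from -0.65 to -0.19 at ZT03, from -0.68 to -0.59 at ZT07 and from -0.26 to -0.06 at ZT11, and was lowest on average at ZT07. Its difference between ZT11 and ZT03 was 0.24 ± 0.08 (SE, adjusted p = 0.164), and its distance from the midpoint did not pass either (log2 -0.37, adjusted p = 0.101).

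All 4 factors that bind the D-box, the control element through which DBP acts, were called. Dbp had -1.16, -1.17, -1.11 and -0.76 at ZT03 and 1.32, 1.08, 1.17 and 1.01 at ZT11. The times were separated by more than 1.5 log2 units at their nearest, and the mean rose 4.58-fold (log2 2.20 ± 0.11, SE, adjusted p = 2.08e-11). Hlf, a relative that also activates, rose 1.81-fold from between -0.69 and -0.33 to between 0.16 and 0.45 (adjusted p = 1.69e-06). Tef, the remaining activator, rose 1.42-fold as the mean of 2 probe sets (adjusted p = 6.85e-06), but one of them gave 0.94 (adjusted p = 2.61e-06) and the other 0.09 (adjusted p = 0.804). Nfil3, which represses from the same sites, ran from -0.02 to 0.08 at ZT03 and from -0.61 to -0.37 at ZT11, and fell 1.43-fold (adjusted p = 0.000198). Of the 14 called genes on these 3 clock lists, 13 were called in all 17 settings tried.

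**Figure D1:**
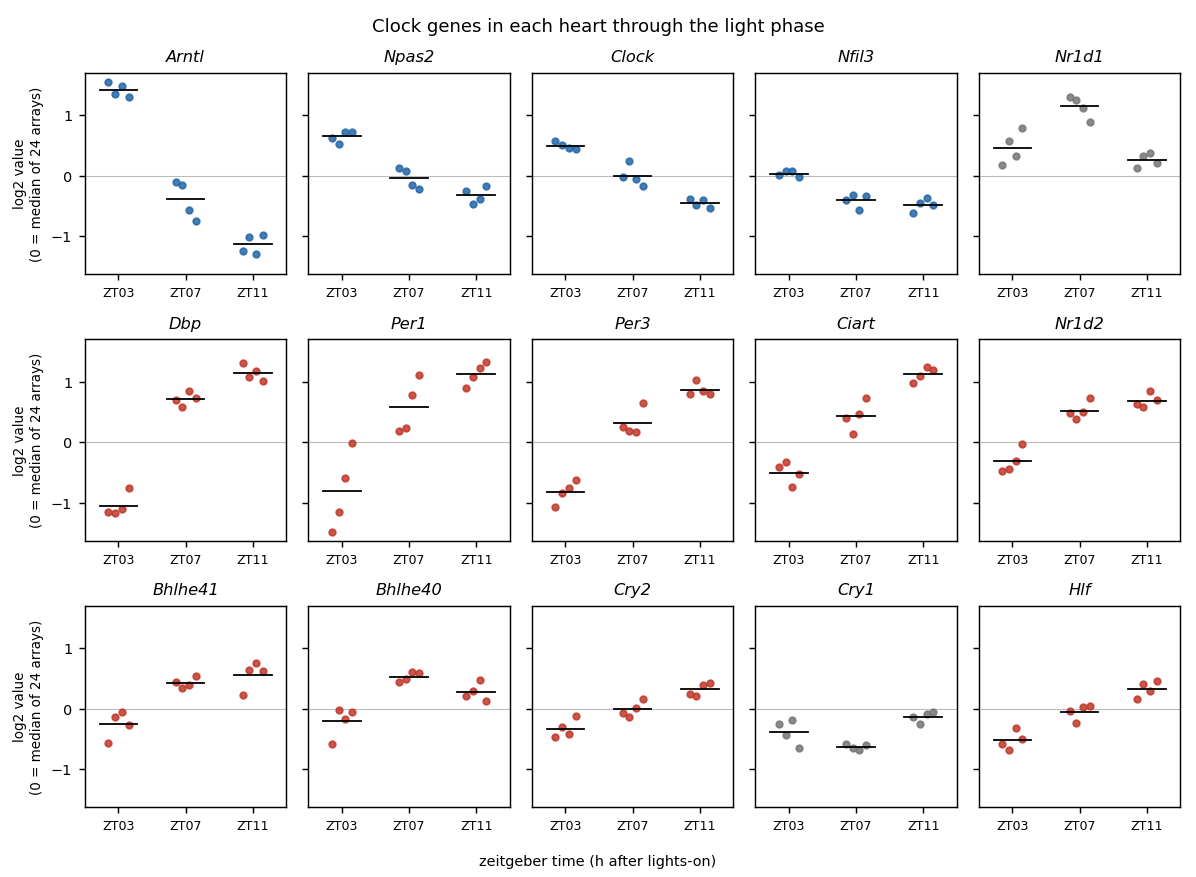
Log2 value, centred on the median of 24 arrays, of 15 clock genes at ZT03, ZT07 and ZT11. Points are hearts, black lines are means of 4, blue marks genes that fell, red genes that rose and grey genes that did not pass. Arntl dropped from at least 1.30 to at most -0.98, Nr1d1 was highest at ZT07, and ZT03 replicate 4 (right-most point) was the highest ZT03 value for Dbp, Per1, Per3, Nr1d2 and Cry2.

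The hearts of 1 time did not move through these genes as a block. With each gene turned so that its change runs upwards, the mean over the 14 called clock genes was -0.70 in ZT03 replicate 1, -0.56 in replicate 2, -0.54 in replicate 3 and -0.40 in replicate 4. Replicate 4 was the ZT03 heart nearest to ZT11 in 8 of the 14 genes. At ZT11 the same mean lay between 0.57 and 0.72. In the other 399 called genes the means of the ZT03 hearts lay between -0.24 and -0.19. Those changes were smaller and each mean covers more genes, so the 2 ranges cannot be compared directly. Replicate 4 was again the ZT03 heart most often nearest to ZT11, in 127 of the 399 genes, followed by replicate 3 in 121.

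The stretch of DNA before the start of some of these genes holds letters that match known sites of clock proteins. Binding was not measured. RefSeq windows of the 250 bases before the annotated start (assembly GRCm38.p6) were at hand for 18 of 21 listed clock genes. They were searched on both strands for the E-box CACGTG, the site of CLOCK with BMAL1, and for the D-box, TTATGTAA or TTACGTAA. Ciart held 3 E-boxes and Per1 had 1 in the first of its 2 windows, while Per3 had 2 D-boxes. Mt1, a metallothionein gene described further on, held a glucocorticoid receptor element. These 4 windows are given because they belong to genes that rose and show 3 kinds of site. The motifs are in capitals.
Ciart, chr3:95882229-95882478, minus strand: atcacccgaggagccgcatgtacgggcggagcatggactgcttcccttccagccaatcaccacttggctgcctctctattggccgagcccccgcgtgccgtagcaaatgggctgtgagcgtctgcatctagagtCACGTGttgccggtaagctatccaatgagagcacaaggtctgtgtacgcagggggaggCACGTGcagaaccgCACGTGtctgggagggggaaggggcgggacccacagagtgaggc
Per1, chr11:69098699-69098948, plus strand: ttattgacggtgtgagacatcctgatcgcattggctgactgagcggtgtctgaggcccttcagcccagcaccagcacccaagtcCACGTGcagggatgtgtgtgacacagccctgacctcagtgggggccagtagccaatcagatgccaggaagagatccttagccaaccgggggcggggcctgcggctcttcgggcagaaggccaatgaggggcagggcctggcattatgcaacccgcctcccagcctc
Per3, chr4:151044666-151044915, minus strand: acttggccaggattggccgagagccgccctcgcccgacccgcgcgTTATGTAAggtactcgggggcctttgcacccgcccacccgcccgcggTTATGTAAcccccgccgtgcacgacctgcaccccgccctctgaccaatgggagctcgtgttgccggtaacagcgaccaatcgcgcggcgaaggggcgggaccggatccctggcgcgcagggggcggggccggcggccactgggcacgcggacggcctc
Mt1, chr8:94178839-94179088, plus strand: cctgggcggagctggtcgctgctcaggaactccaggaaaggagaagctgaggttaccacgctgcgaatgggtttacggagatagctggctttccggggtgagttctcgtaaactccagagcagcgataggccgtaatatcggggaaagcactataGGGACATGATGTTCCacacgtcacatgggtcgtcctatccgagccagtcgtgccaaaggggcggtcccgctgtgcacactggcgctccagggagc

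The E-boxes of Ciart began 116, 58 and 44 bases before the start, that of Per1 166 bases before it, and the D-boxes of Per3 205 and 158 bases before it. Tef and Bhlhe41 also held an E-box, as did Cry1, which did not pass the test. The windows of Dbp, Arntl, Clock, Npas2, Nr1d1, Nr1d2 and Nfil3 held none of the sites searched for. Over all 16990 genes with a window, 7.83% held the E-box, against 14.2% of the higher genes (21 of 148) and 14.7% of the lower genes (25 of 170). Called genes had more windows each, 1.36 and 1.38 on average against 1.21 over all genes. The D-box was in 1.06% of all genes, in 2 of the higher genes (1.35%) and in 1 of the lower genes (0.588%). The ROR element, which REV-ERB and ROR receptors share, was in 0.33% of all genes, in 1 higher gene and in 2 lower genes. These shares describe letters in a short window only.

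The largest rises beyond the clock included those of Zbtb16, Tcap, Wee1, Timp3, Mt2 and Usp2. Zbtb16, which encodes the zinc finger regulator PLZF and is strongly induced by glucocorticoids, had -1.04, -1.08, -0.91 and -1.05 at ZT03 and 1.01, 1.00, 0.70 and 1.16 at ZT11. It rose 3.97-fold with a wide gap between the times (log2 1.99 ± 0.23, SE, adjusted p = 1.52e-05). Tcap, the Z-disc protein that caps titin, had -0.64, -0.83, -0.57 and -0.29 against 0.78, 0.82, 0.79 and 0.83, with nearly equal hearts at ZT11, and rose 2.62-fold (adjusted p = 4.07e-07). Wee1, the kinase that holds cells before mitosis and a known clock output, rose 2.36-fold from between -0.73 and -0.53 to between 0.50 and 0.76 (adjusted p = 3.97e-05). Usp2, a deubiquitinase under clock control, rose 2.28-fold from between -0.99 and -0.48 to between 0.37 and 0.48 (adjusted p = 4.87e-10). Further rises close to 2-fold were seen in Ces1d, a carboxylesterase, Coq10b, a gene of coenzyme Q function, Ifi205, of the interferon-inducible family, Xdh, which encodes xanthine oxidoreductase, and Fmo2, a flavin monooxygenase (1.78-fold to 2.00-fold, adjusted p at most 5.06e-05).

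Beyond the clock the largest fall was that of Nppb, which encodes the natriuretic peptide BNP released by stretched muscle. It had 0.49, 1.02, 0.47 and 0.26 at ZT03 and -1.40, -0.77, -0.58 and -0.97 at ZT11. Its hearts spread widely within each time but did not overlap, and the mean fell 2.81-fold (log2 -1.49 ± 0.22, SE, adjusted p = 0.000212). Rrad, a small GTPase that restrains the L-type calcium channel, had 0.75, 0.76, 0.88 and 0.78 against -0.76, -0.96, -0.05 and -0.68. The ZT03 hearts were almost equal, ZT11 replicate 3 stood above the other ZT11 hearts, and the mean fell 2.64-fold (adjusted p = 6.85e-06). Rcan1, an inhibitor of the phosphatase calcineurin, had 0.69, 0.77, 0.48 and 0.63 against -0.90, -0.67, -0.69 and -0.58, and fell 2.54-fold (adjusted p = 2.21e-08). Spon2, a matrix protein gene, ran from 0.87 to 1.32 and from -0.38 to -0.15, and fell 2.52-fold (adjusted p = 3.57e-08). Slc41a3, of a magnesium transporter family, fell 2.36-fold with hearts between 0.64 and 0.72 at ZT03 (adjusted p = 1.35e-08). Ankrd23, an ankyrin repeat protein of the stretch-sensing kind, fell 2.33-fold (adjusted p = 1.30e-06). The transcription factor genes Prox1 (1.99-fold, adjusted p = 2.41e-08) and Sox4 (1.98-fold, adjusted p = 1.06e-08) fell as well, Sox4 in both of its probe sets. So did Epha4, an ephrin receptor gene (1.90-fold, adjusted p = 5.27e-07), Ccn1, a matrix signalling gene (1.86-fold, adjusted p = 1.84e-05), and Rel, of the NF-kappa-B family (1.78-fold, adjusted p = 0.00676).

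**Figure D2:**
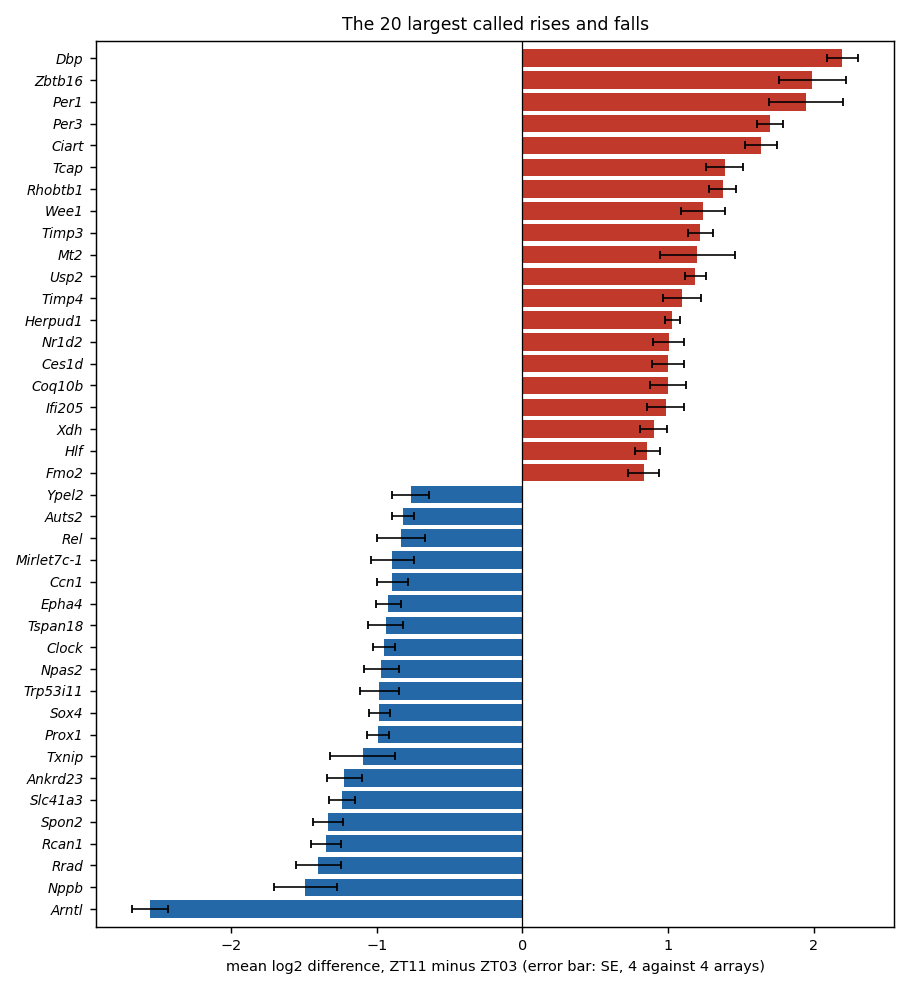
Mean log2 difference between ZT11 and ZT03, from 4 against 4 arrays. The genes are the 20 largest called rises (red) and the 20 largest called falls (blue) among genes whose hearts did not overlap. Standard errors are limma's moderated values with the spread pooled over all times, not that of the compared hearts alone. Dbp (2.20) and Arntl (-2.55) are the extremes, and the shortest bars are 0.83 among rises and -0.77 among falls.

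The 36 pathway lists and 16 cell type lists held 1071 measured genes, of which 93 (8.68%) were called, against 1.86% of all genes. Many listed genes are known to be expressed in heart, which does not hold for all genes on the array. The lists were also chosen with earlier results of these data known, so the 2 shares are not on an equal footing. The list of glucocorticoid-responsive genes had the most calls. Of its 30 measured members 12 rose and 3 fell, with a median difference of 0.27, and 9 of the 15 were called in all 17 settings. Fkbp5, a chaperone of the glucocorticoid receptor, had -0.27, -0.21, 0.00 and -0.40 at ZT03 against 0.15, 0.43, 0.24 and 0.57 at ZT11, and rose 1.48-fold (adjusted p = 0.00086). Tsc22d3, which encodes the anti-inflammatory protein GILZ, rose 1.55-fold without overlap (adjusted p = 9.19e-05), and Klf9, a Kruppel-like factor, 1.45-fold (adjusted p = 0.000189). Sult1a1, a sulfotransferase, and Map3k6, a stress kinase, rose 1.62-fold (adjusted p = 7.91e-05) and 1.48-fold (adjusted p = 8.77e-06).

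The metallothionein genes Mt1 and Mt2, whose products bind zinc and copper, answer to both metals and glucocorticoids. Each lost its call in 1 of the 17 settings. Mt2 had -0.47, -0.23, -0.49 and 0.10 at ZT03 and 1.47, 0.54, 0.60 and 1.11 at ZT11, a 2.30-fold rise (adjusted p = 0.0123) that was lost without ZT11 replicate 1 (adjusted p = 0.0587). Mt1 rose 1.35-fold (adjusted p = 0.0109) and was lost without the same heart (adjusted p = 0.0512). That heart had the highest value of its group in both genes. The members that fell were Lpin1, a phosphatidate phosphatase and coactivator (1.28-fold, adjusted p = 0.00325), and less firmly Cdkn1a and Angptl4. Cdkn1a, an inhibitor of the cell cycle, fell by 0.58 on the log2 scale (adjusted p = 0.0146), and the call was lost without ZT03 replicate 1 or 2 or ZT11 replicate 2 or 3 (adjusted p up to 0.0589). A glucocorticoid receptor element stood in the windows of 3 higher genes, Mt1, Map3k6 and Slc10a6 (2.03%), in 0 of 170 lower genes and in 0.212% of all genes.

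Genes of the endoplasmic reticulum went both ways, with 2 called higher and 4 lower (18.8% called, against 1.86% of all genes). Herpud1, which serves the degradation of misfolded proteins at that membrane, had -0.54, -0.57, -0.55 and -0.51 at ZT03 and 0.52, 0.43, 0.37 and 0.64 at ZT11. The hearts of each time were close together, and the 2.04-fold rise had a standard error of only 0.05 on the log2 scale (adjusted p = 4.77e-11). Ddit3, the stress factor CHOP, rose 1.42-fold (adjusted p = 0.00809). The genes that fell, of 32 measured, included Ppp1r15a, a subunit that reverses the translation block under stress (1.36-fold, adjusted p = 0.00153), and the chaperones Hyou1 (1.33-fold, adjusted p = 0.00689) and Pdia3 (1.25-fold, adjusted p = 0.00697). The last 2 were lost in the fit of the 8 arrays alone (adjusted p = 0.0789 and 0.117). Hspa5, the central chaperone BiP, fell by 0.26 on the log2 scale (adjusted p = 0.0245) but lost its call without ZT03 replicate 1 or 2 or any of ZT11 replicates 1, 3 and 4 (adjusted p up to 0.114). The median of the list was -0.09, with 6 of 32 differences above 0.

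Of 27 genes of glucose uptake and glycolysis 1 rose and 3 fell (14.8% called, against 1.86% of all genes). Txnip, which limits glucose uptake, had 1.58, 0.68, 0.93 and 1.03 at ZT03 and -0.12, -0.05, -0.03 and 0.03 at ZT11. The ZT03 hearts varied over nearly a log2 unit while those at ZT11 were almost equal, and the mean fell 2.14-fold (adjusted p = 0.00797). Pfkfb2, the phosphofructokinase-2 form abundant in heart, fell 1.38-fold (adjusted p = 0.00206), whereas the form encoded by Pfkfb3 rose 1.29-fold (adjusted p = 0.0102, lost without ZT03 replicate 1 and with the 8 arrays alone, adjusted p up to 0.0835). Angptl4, an inhibitor of lipoprotein lipase, showed a like spread at ZT03, with 1.51, -0.01, 0.62 and 0.93 against -0.21 to 0.10 at ZT11. The groups overlapped through ZT03 replicate 2, and the call (1.80-fold lower, adjusted p = 0.0398) was lost without any heart but that one and with the 8 arrays alone (adjusted p up to 0.213). Pdk4, the kinase that inhibits pyruvate dehydrogenase, had 1.27, 0.19, 0.69 and 1.06 at ZT03, again lowest in replicate 2 and highest in replicate 1, and did not pass (log2 -0.81 ± 0.23, SE, adjusted p = 0.0989).

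Of 28 genes of triglyceride turnover 2 rose and 1 fell (10.7% called, against 1.86% of all genes). Dgat2, which completes triglyceride synthesis, rose 1.66-fold from between -0.59 and -0.19 to between 0.26 and 0.48 (adjusted p = 6.99e-06). Gpam, which starts it, rose 1.28-fold (adjusted p = 0.00459, 0.12 with the 8 arrays alone), and Lpin1 was the 1 that fell. Of 36 insulin and nutrient signalling genes 4 rose and 2 fell (16.7% called), while only 10 differences were above 0 and the median was -0.07. Irs1, an adaptor of the insulin receptor, fell 1.43-fold (adjusted p = 5.14e-05), though its 2 probe sets gave -0.77 (adjusted p = 6.64e-05) and -0.26 (adjusted p = 0.11). Pik3r1, a regulatory subunit of the kinase downstream of it, had -0.38, -0.29, -0.41 and -0.50 against 0.26, 0.28, 0.16 and 0.18, and rose 1.53-fold (adjusted p = 0.000684). Eif4ebp1, a brake on translation that the kinase mTOR releases, rose 1.41-fold (adjusted p = 0.000171), and the forkhead factor Foxo3 rose 1.33-fold (adjusted p = 0.00341, 0.0823 with the 8 arrays alone). Hmgcs1 was the only gene called of 25 in sterol and fatty acid synthesis (4%, against 1.86% of all genes), and fell 1.32-fold (adjusted p = 6.60e-05).

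Of 25 cardiac stress and growth genes 4 were called (16%, against 1.86% of all genes). Nppb, Rcan1 and Hdac9 fell, and Hdac4, a deacetylase that restrains growth, rose 1.37-fold from between -0.25 and 0.00 to between 0.17 and 0.40 (adjusted p = 0.00261). The Hdac9 call (1.21-fold, adjusted p = 0.0232) was lost with the 8 arrays alone and without ZT03 replicate 2 or 4 or ZT11 replicate 1 or 3 (adjusted p up to 0.156). Gja1, which encodes the main gap junction connexin of the ventricle, had 0.34, 0.46, 0.26 and 0.35 at ZT03 against -0.56, -0.18, -0.22 and -0.45 at ZT11. All ZT03 hearts were above all ZT11 hearts, and the mean fell 1.63-fold (adjusted p = 4.12e-05). It was the 1 call among 23 ion channel and connexin genes (4.35%, against 1.86% of all genes). Of 28 adrenergic and cyclic nucleotide genes 3 fell and 0 rose (10.7% called). Among them were Grk5, a kinase that desensitises adrenergic receptors (1.47-fold, adjusted p = 0.000389), and Pde3a, a phosphodiesterase (1.32-fold, adjusted p = 0.00879).

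Of the genes of metalloproteinase inhibitors, Timp3 and Timp4 rose, while Timp1 (log2 0.00, adjusted p = 1) and Timp2 (0.06, adjusted p = 0.865) did not pass. Timp3 had -0.60, -0.51, -0.48 and -0.35 at ZT03 and 0.57, 0.62, 0.73 and 1.02 at ZT11, and rose 2.33-fold without overlap (adjusted p = 6.63e-09). Timp4, a form expressed mainly in heart, rose 2.14-fold from at most -0.25 to at least 0.48 (adjusted p = 2.77e-05). Mmp14, a membrane-bound metalloproteinase, had 0.23 to 0.50 at ZT03 and -0.29 to -0.04 at ZT11, and fell 1.42-fold (adjusted p = 0.000563). In the whole list of 38 matrix genes 2 rose and 3 fell (13.2% called, against 1.86% of all genes), and the median was -0.08. Of 29 vascular and oxygen-sensing genes 4 fell and 1 rose (17.2% called). Vegfa, the main angiogenic growth factor, had 0.04, 0.16, 0.13 and 0.20 against -0.33, -0.39, -0.24 and -0.35, and fell 1.37-fold (adjusted p = 9.29e-06). Its receptor Kdr fell 1.56-fold from between 0.22 and 0.47 to between -0.36 and -0.21 (adjusted p = 1.52e-05), and Aplnr, the apelin receptor, 1.47-fold (adjusted p = 0.00116). Hif1a, the oxygen-regulated factor, fell 1.30-fold (adjusted p = 6.93e-05) with probe sets at -0.59 (adjusted p = 3.44e-06) and -0.16 (adjusted p = 0.345).

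Markers of single cell types gave 4 calls over the 16 lists, which held 2 to 13 measured genes each. At the 1.86% called over all genes, these lists together would also hold a few calls. Kdr is also an endothelial marker, and another of the 12 endothelial markers, the water channel Aqp1, went the opposite way, 1.55-fold higher at ZT11 (adjusted p = 0.000122). The mean of that list ran from 0.020 to 0.103 over the ZT03 hearts and from -0.095 to 0.129 over the ZT11 hearts. Of 12 fibroblast markers Pdgfra fell 1.32-fold (adjusted p = 0.0124, lost with the 8 arrays alone and without ZT03 replicate 1 or ZT11 replicate 1, adjusted p up to 0.102), and the list mean ran from -0.014 to 0.126 and from -0.122 to 0.038. Of 12 macrophage markers Cd163 rose 1.34-fold (adjusted p = 0.0274, lost without any heart but ZT03 replicate 1, adjusted p up to 0.111). None of the 12 ventricular, 9 atrial, 11 smooth muscle, 11 neutrophil, 9 lymphocyte or 13 platelet markers was called. The part of cell composition in the calls was not tested.

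Several groups gave 0 calls in limma's test, which called 1.86% of all genes. At that share groups of these sizes would hold few calls or none. These were oxidative phosphorylation (67 measured genes, median difference 0.03), cytosolic ribosomal proteins (57, 0.00), the proteasome (37, 0.01), thick and thin filament genes (25, 0.01), branched-chain amino acid catabolism (20, -0.01), regulators of the PPAR and ERR kind (15, -0.04) and the pyruvate dehydrogenase group (12, -0.04). A miss at this threshold does not show that these genes were level.

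**Figure D3:**
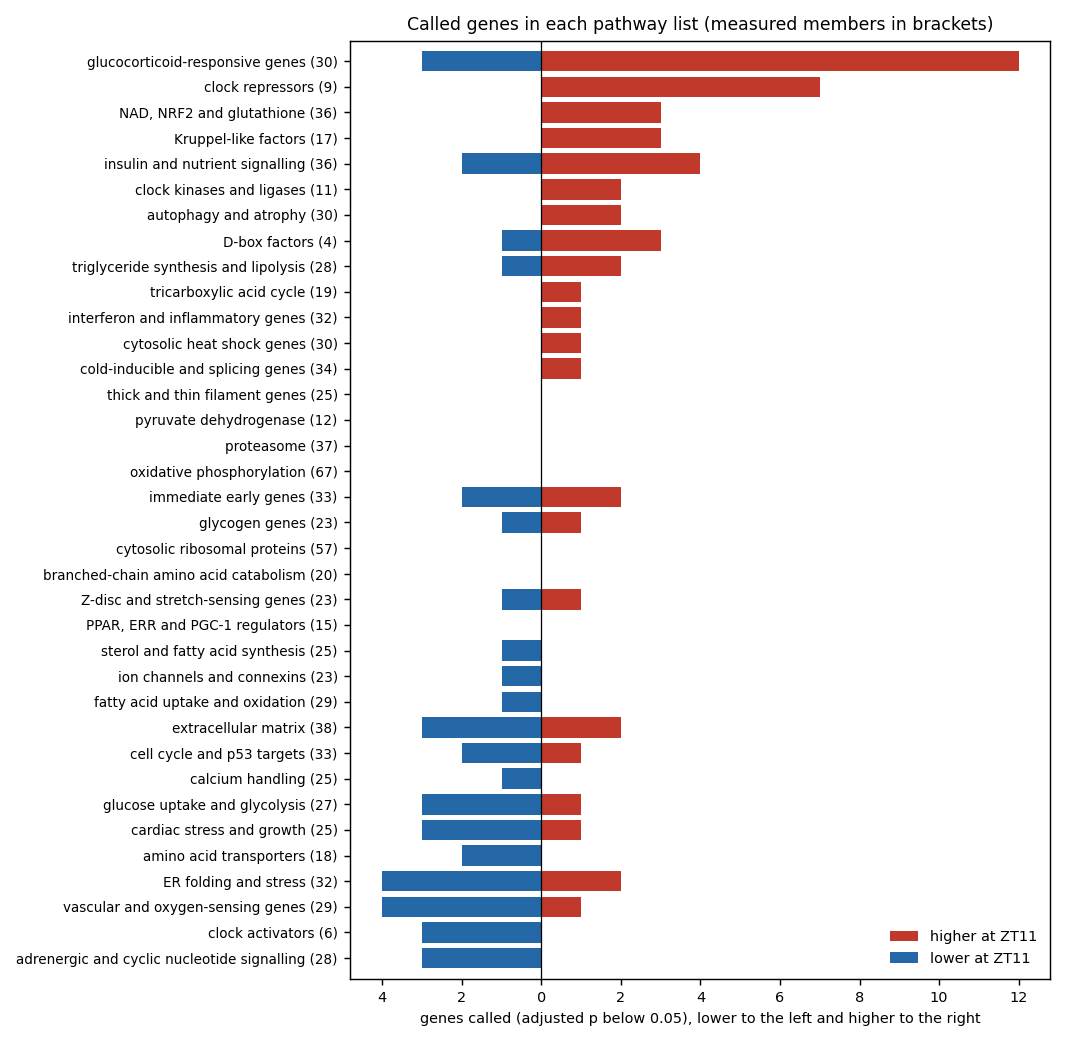
Number of genes called higher (red, to the right) and lower (blue, to the left) at ZT11 than at ZT03 in each of 36 pathway lists, with the number of measured genes in brackets. Glucocorticoid-responsive genes hold 12 higher and 3 lower calls, clock repressors 7 higher, and 7 lists hold 0 calls.

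A microRNA locus was among the largest falls. The probe set of Mirlet7c-1 had 1.31, 0.77, 0.49 and 0.37 at ZT03 and -0.30, -0.01, -0.05 and -0.26 at ZT11, a 1.86-fold fall without overlap (adjusted p = 0.001, 0.0629 with the 8 arrays alone). Its neighbours on chromosome 16 were examined because of that result. Mir99a lies 657 bases before it on the same strand, and had 0.91, 0.72, 0.66 and 0.28 against -0.23, -0.02, 0.10 and 0.01, a 1.60-fold fall (adjusted p = 0.00126). Mir99ahg, named as their host gene although its RefSeq end lies before them, fell 1.33-fold (adjusted p = 0.0194, lost in 7 of 16 settings, adjusted p up to 0.0984). Mir125b-2, further along the same strand, had -0.02 to 0.03 at ZT03 and -0.01 to 0.04 at ZT11, and did not pass (log2 0.01 ± 0.03, SE, adjusted p = 0.99). In RefSeq the mature sequences from the 5′ arms are as follows, shown because they name the products of this locus, with the seed (bases 2 to 8) in capitals. The 3 seeds differ.
mmu-let-7c-5p, chr16:77599672-77599693, plus strand: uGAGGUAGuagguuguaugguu
mmu-miR-99a-5p, chr16:77598940-77598961, plus strand: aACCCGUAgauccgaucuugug
mmu-miR-125b-5p, chr16:77646279-77646300, plus strand: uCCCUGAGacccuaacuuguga
The annotation names the microRNA gene only, so precursor, mature form and arms cannot be told apart.

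ZT07 shows when within these 8 h the changes took place. Its arrays share no heart with the other times, but each step below shares an array group with the comparison above, so the values are given side by side. Between ZT03 and ZT07 45 genes (0.203%) were called, and between ZT07 and ZT11 69 (0.311%). The mean at ZT07 lay between those of ZT03 and ZT11 for 178 of the 188 higher genes and for 222 of the 225 lower genes. The genes were picked for a gap between ZT03 and ZT11, which by itself favours a ZT07 mean within that gap. The share over all genes was not counted, so these counts do not show a steady course. Arntl fell by 1.81 in the first step and by 0.74 in the second (adjusted p = 1.38e-08 and 0.00467). Dbp rose by 1.76 and then 0.43 (adjusted p = 3.40e-09 and 0.106), Tcap by 1.21 and 0.18 (adjusted p = 1.17e-05 and 0.873), and Spon2 fell by 1.11 and then 0.23 (adjusted p = 3.19e-06 and 0.666). In contrast, Rrad fell by 0.19 and then 1.22 (adjusted p = 0.932 and 0.000248), and Wee1 rose by 0.26 and then 0.98 (adjusted p = 0.868 and 0.00344). Clock fell by 0.50 and 0.45 (adjusted p = 0.00166 and 0.00429).

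Whether ZT07 lay off the midpoint of the other 2 times was tested for every gene, and 3 genes (0.0135%) passed. Dbp at ZT07 was 0.66 above the midpoint, and Nr1d1, described above, 0.78 above it. Fmo2 at ZT07 was 0.57 below the midpoint, with -0.68, -0.55, -0.58 and -0.48 next to -0.58 to -0.30 at ZT03 and 0.10 to 0.70 at ZT11, so that the whole 1.78-fold rise came after ZT07. The unequal pace of Tcap, Spon2, Rrad and Wee1 did not pass this test. The count of 3 became 1 without ZT03 replicate 3 or ZT11 replicate 2, 5 without ZT03 replicate 4 and 7 without ZT11 replicate 3.

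**Figure D4:**
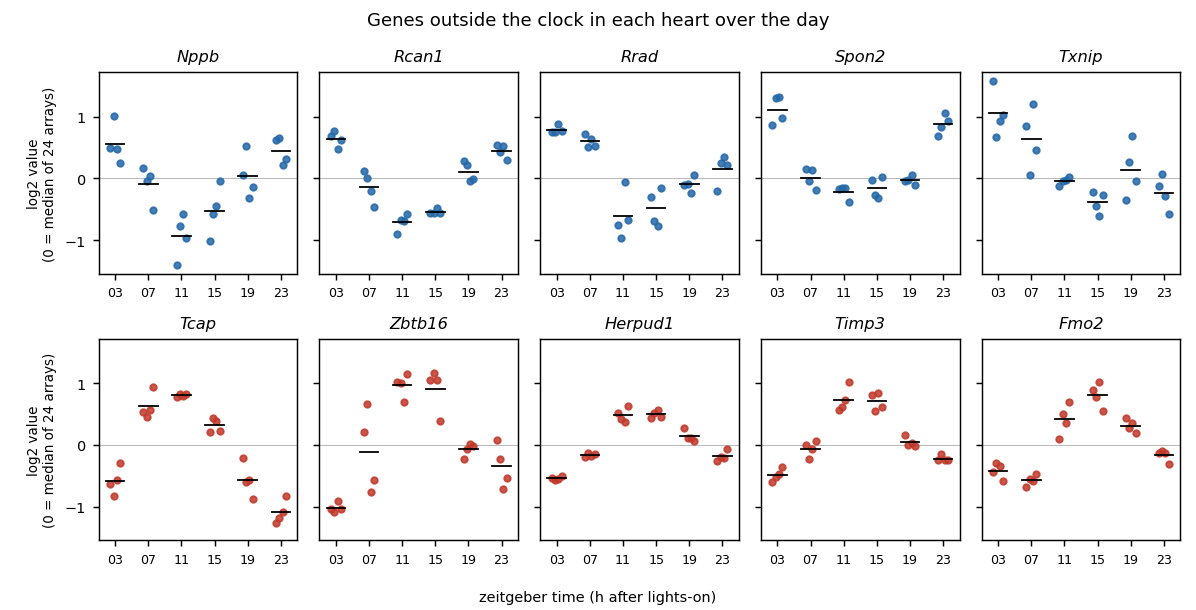
Log2 value, centred on the median of 24 arrays, of 10 genes beyond the clock lists at all 6 times (ZT in hours), with 1 point per heart and a black line at the mean of 4. Blue genes fell and red genes rose from ZT03 to ZT11. Spon2 was near its ZT11 level by ZT07, Rrad was still high at ZT07, and Fmo2 rose after ZT07.

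Hearts from the dark phase gave a second look at the same genes with other arrays. ZT15 and ZT23 lie 3 h after lights-off and 1 h before lights-on, 4 h beyond ZT11 and 4 h ahead of ZT03, and share no array with either. Between them 263 genes (1.19%) were higher at ZT15 and 111 (0.5%) lower. Of the 188 genes higher at ZT11 than at ZT03, 181 (96.3%) were also higher at ZT15 than at ZT23, where 53.2% of all genes were, and 93 of them were called. Of the 225 lower genes 199 (88.4%) were lower at ZT15, where 46.8% of all genes were, and 68 of the 199 were called. The median difference of the higher genes was 0.40 at ZT11 against ZT03 and 0.31 at ZT15 against ZT23, and that of the lower genes -0.39 and -0.20. Since the genes were picked for the first difference, the 2 sizes are not on an equal footing.

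The difference between the 2 contrasts was called for 0 genes (0%) in limma's test, with 1536 at an unadjusted p below 0.05, and for up to 5 genes in other settings. It was 4 without ZT03 replicate 1 and 1 without ZT03 replicate 4. Slc41a3 changed by almost the same amount in both, by -1.24 and -1.28, and Tcap by 1.39 and 1.41. Ciart rose by 1.64 from ZT03 to ZT11 but differed by 0.66 between ZT23 and ZT15, and Auts2, a transcription regulator gene, changed by -0.82 and -0.19. These 2 were close to the threshold (adjusted p = 0.0616 for each). Vegfa fell by 0.46 in the light and differed by -0.09 in the dark (adjusted p of the difference = 0.107), and Ccn1 fell by 0.89 and differed by -0.13 (0.107). Txnip fell by 1.10 and differed by -0.16 (0.538).

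**Figure D5:**
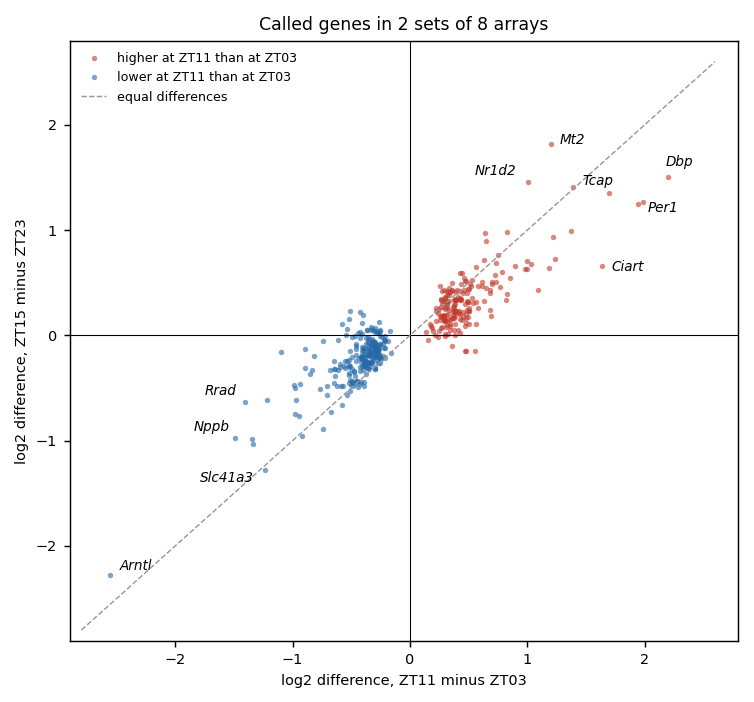
Each point is 1 of the 413 called genes, with its mean log2 difference between ZT11 and ZT03 on the x axis and between ZT15 and ZT23, from other hearts, on the y axis. Genes higher at ZT11 are red and lower ones blue. Most points share a sign (181 of 188 and 199 of 225), Mt2 and Nr1d2 lie above the dashed line of equal differences, and Ciart lies below it.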

How the data were processed

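Hearts of 24 mice were profiled on 24 arrays, 4 at each of 6 zeitgeber times, and grouped by the time in their labels. The authors deposited 1 value per probe set and array, read as a log2 value centred on the median of the 24 arrays (largest remaining median 5e-07). How they were summarised and normalized, with which software and to which log base, is not given in the sources used here, and a filter on dim genes has no meaning on centred values. Of 34351 probe sets, 23521 named 1 gene in the platform annotation and 1814 several. A RefSeq table (GRCm38.p6) held 23328 of the former and changed 0 symbols. Probe sets of 1 gene were averaged, which gave 22180 genes, 1082 of them with over 1 probe set.

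All 24 arrays entered 1 limma fit (3.58.1, R 4.3.3) of 6 time means with 18 residual degrees of freedom, which was tested on simulated data. The contrasts were ZT11 minus ZT03, ZT07 minus the midpoint of both, the 2 steps through ZT07, ZT15 minus ZT23, and the difference between ZT11 minus ZT03 and ZT15 minus ZT23. P-values were Benjamini-Hochberg adjusted over 22180 genes, and genes with an adjusted p below 0.05 were called. Where nothing shows separate cages or batches, p-values and standard errors rest on the spread between hearts of the same time. That spread was pooled over all 6 times and moderated by limma, so it is not that of the 8 compared hearts alone. Named genes were all measured clock genes, the 20 largest rises and falls without overlap, the 4 smallest p-values of each list, called cell type markers, and genes called off the midpoint. Predicted genes were not named, and genes beyond the rule are list members or were chosen after their values were seen. The comparison, lists and rules were chosen with earlier results of these data known. Same-numbered hearts of the 2 times had correlated deviations of 0.226, 0.018, -0.007 and 0.123, so numbers were not used as pairs. Alternatives were other scalings, array weights, a robust fit, single probe sets, coding genes only, the 8 arrays alone, a replicate block, and leaving out arrays.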

Additional observations from a re-analysis of the deposited data

Results flagged for a closer look

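In 45 genes and 90 groups of 4 hearts screened for a single heart far from its group, 3 hearts stood out, where chance alone would mark about 1 in 20 groups. Ankrd23 had 0.8187 in ZT03 replicate 2, against 0.3622 to 0.4395 in the other ZT03 hearts. Dbp had -0.7588 in ZT03 replicate 4, against -1.1701 to -1.1147. Spon2 had -0.3849 in ZT11 replicate 4, against -0.1755 to -0.1490. Each lay within its own side of the comparison, and none of the 3 genes lost its call in any of the 17 settings.

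The later step through the light phase differed from the earlier one in 3 genes, those called off the midpoint at ZT07. For Dbp the step from ZT07 to ZT11 minus the step from ZT03 to ZT07 was -1.3291, so the rise slowed. For Fmo2 it was 1.1381, with the rise after ZT07. For Nr1d1, which was not called between ZT11 and ZT03, it was -1.5661, a rise followed by a fall.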

How the results depend on the processing

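Of the 413 calls, 177 were made in all 17 settings, 7 more in all 16 settings that tested them (not with coding genes only), and 0 reversed sign. Of the 97 named calls 67 were made in all 17. The count lay between 395 and 527 under other scalings, array weights, a robust fit, single probe sets, coding genes only, the replicate block and without the 3 arrays of widest spread. With the 8 arrays alone it was 279, of which 240 were among the 413, and 115 genes were higher. At an adjusted p below 0.01 it was 215, and with a minimum change of 1.2-fold it was 373. Leaving out 1 heart gave 277 to 367 genes, with 131 to 190 higher and 145 to 200 lower. The genes off the midpoint at ZT07 numbered 1 with arrays scaled to the same spread or without the 3 widest arrays, and 1 to 7 without 1 heart. Genes whose change differed from that between ZT15 and ZT23 numbered 4 with scaled arrays, 5 without the 3 widest arrays, and 0 to 4 without 1 heart. The cause of these shifts was not tested. The replicate block, used although numbers did not pair the hearts, gave 395 genes, 378 of them among the 413. It ended 4 of the 97 named calls, those of Angptl4, Cd163, Idh1 and Tbc1d4. Signal over background is unknown, so dim genes could not be told from bright ones.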

Other observations

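Of the 413 called genes 320 stood on no list, and the genes below were picked from them after their values were seen. Srf, the serum response factor that drives many muscle and cytoskeletal genes, had 0.11, 0.08, 0.03 and -0.01 at ZT03 and -0.19, -0.38, -0.35 and -0.42 at ZT11, a 1.31-fold fall without overlap (adjusted p = 0.00386). Tnfrsf12a, a receptor induced in injured muscle, fell 1.49-fold (adjusted p = 0.00431), and Cavin4, a caveolar protein of heart muscle, fell by 0.44 on the log2 scale. Tbx20, a transcription factor of heart development, fell 1.29-fold from between 0.10 and 0.22 to between -0.27 and -0.20 (adjusted p = 0.0049), and the thyroid hormone receptor gene Thra 1.25-fold (adjusted p = 0.00414). Tfrc, the transferrin receptor that brings iron into cells, fell 1.67-fold (adjusted p = 0.00784).

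Some enzymes of retinoid and xenobiotic metabolism were among the calls in either direction. Ephx1, microsomal epoxide hydrolase, had -0.10, -0.09, -0.20 and -0.26 against 0.45, 0.63, 0.52 and 0.67, and rose 1.66-fold (adjusted p = 2.77e-05). Adh1, an alcohol dehydrogenase that also acts on retinol, rose 1.60-fold as a mean, with 1.38 in one probe set (adjusted p = 8.46e-07) and -0.02 in the other (adjusted p = 0.935). Aldh1a1, which makes retinoic acid, rose 1.57-fold (adjusted p = 0.0123) and lost its call without ZT03 replicate 3 (adjusted p = 0.0552). Dhrs3, which turns retinal back to retinol, fell 1.39-fold (adjusted p = 0.008, 0.0852 with the 8 arrays alone). Mhrt, a long noncoding RNA that lies antisense to Myh7, rose 1.26-fold (adjusted p = 0.00746), and whether the array separates the strands there was not examined.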
